A study of Saccharomyces cerevisiae with 9 samples.

Results

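The genes described here are 10 genes of the budding yeast cell wall, chosen by name from the 7127 genes listed in the count files, and all 10 passed the filter on low counts in each comparison. They are *FKS1* (YLR342W), *FKS2* (YGR032W, named *GSC2* in RefSeq), *GAS1* (YMR307W), *CCW12* (YLR110C), *CWP1* (YKL096W), *CWP2* (YKL096W-A), *SED1* (YDR077W), *CIS3* (YJL158C), *PIR1* (YKL164C) and *HSP150* (YJL159W). Messenger RNA was sequenced from cultures in early, mid and late log phase, with 3 biological replicates (A, B and C) of each subphase, to ask how the transcriptome differs within exponential growth. All 9 cultures were of 1 wild-type MATa strain in YPD, a rich medium with glucose. The strain has the mutant alleles his3-11, ade2-1 and can1-100, along with ura3-1, trp1-1 and a leu2 allele that combines mutations 3 and 112. It also carries RPA135-(HA)3-(His)7::TRP1, a tagged gene of a Pol I subunit, so that every library shares the tag. Subphases were defined by optical density alone, so that they differ in cell density and in whatever changes with it, and these cannot be told apart. Levels were measured in bulk RNA enriched for poly(A), in which fewer cells of a kind and less RNA per cell cannot be told apart.

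The yeast wall is a network of glucan, with some chitin, to which an outer layer of mannosylated proteins is attached. Glucan synthase spins the main chains at the plasma membrane, transglycosidases on the cell surface lengthen and join them, and 2 kinds of protein are then linked to the network. Proteins with a GPI anchor are moved from the membrane to the wall, while Pir proteins are bound directly to the main glucan through glutamines in their repeats. The wall is rebuilt with each bud, and stress on it is sensed by the cell wall integrity pathway, a kinase cascade that runs from membrane sensors through Pkc1 to the MAP kinase Slt2.

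Counts on genes totalled 22830165 to 34358259 a library, and each of the 10 genes had between 2484 (*FKS2*) and 640815 (*CCW12*) counts in a library, so that counting error is small beside the differences between cultures. Levels are given in CPM, counts scaled to a common library size, after TMM scaling, a method that sets the middle of the gene distribution equal between libraries. Mid log A lay between the early log libraries and the other mid log libraries for many of the genes, and early log C lay away from early log A and B for *CWP1* and *PIR1*. By the sequencing table of the study, run 1 held early log A and B, run 2 held all of mid log, and run 3 held early log C and all of late log, so that a mid log difference and one of run 2 cannot be told apart. MATa marker genes summed to between 626 and 2386 CPM per library and MATalpha markers to between 19.7 and 31.3 CPM, of which *SAG1* gave most.

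Relative to early log, 6 of the 10 genes were higher in late log, 2 were lower and 2 did not pass the test. *CWP2* rose by 2.01 on the log2 scale, *CCW12* by 1.40, *CWP1* by 1.26, *CIS3* by 1.07, *GAS1* by 0.57 and *FKS1* by 0.34. *SED1* fell by 2.52 and *PIR1* by 1.00. Genes were called at 0.05 by edgeR's quasi-likelihood test, with p-values adjusted by the Benjamini-Hochberg method over all genes tested, in which 33.0% of genes were higher and 39.2% were lower. Calls were thus common among all genes. The median log2 fold change was 0.46 for the 10 genes and -0.08 for all genes tested.

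Between mid and early log, *FKS1*, *GAS1*, *CWP1* and *CIS3* were higher in mid log and *PIR1* was lower, and the other 5 genes did not pass the test. Of all genes tested, 20.7% were higher and 24.2% were lower in mid log. The median log2 fold change was 1.01 for the 10 genes and -0.12 for all genes. This count rests on single libraries. It was 0 of 10 when early log A, B of either subphase, or mid log C was left out, and those fits called 0% of all genes. It was 3 without early log C, where 36.9% of all genes passed, and 9 (7 higher and 2 lower) without mid log A, where 76.4% passed. With both mid log A and early log C left out, all 10 genes passed, 8 of them higher and 2 lower in mid log, in a fit that called 89.6% of all genes.

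None of the 10 genes passed the test between late and mid log, where 0.307% of all genes were higher and 0.153% lower. At an unadjusted p below 0.05 there were 3 of the 10 (*FKS1* and *GAS1* with lower values in late log, *CWP2* with a higher one). With DESeq2's size factors in the same test there were also 3, beside 1163 of all 5865 genes. DESeq2's own test called 1, *FKS1*, and 6.03% of all genes. Without mid log A, 8 of the 10 genes passed, 3 higher and 5 lower in late log, as did 56.1% of all genes. Part of the pattern depends on the scaling. Divided by library totals instead, the median gene stood at -0.68 between late and early log and at -0.89 between mid and early log, and *FKS1*, *FKS2*, *GAS1* and *HSP150* then had negative values between late and early log, while the other 6 genes kept their signs, and 3 of the 10 were called higher and 3 lower. Between mid and early log, 0 were then called higher and 2 lower. Of all genes, this scaling called 69.4% between late and early log and 39.4% between mid and early log. With the sequencing run in the model, the late over early call held for *CWP2* alone, and 24.1% of all genes were called. *SED1* was then at -2.67 (adjusted p = 0.0516 in that model) and *CCW12* at 1.36 (adjusted p = 0.0609), sizes near those without the run. *CWP1* at 0.73, *CIS3* at 0.90 and *PIR1* at -0.42 were smaller in size, and *FKS2* turned its sign.

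**Figure D1:**
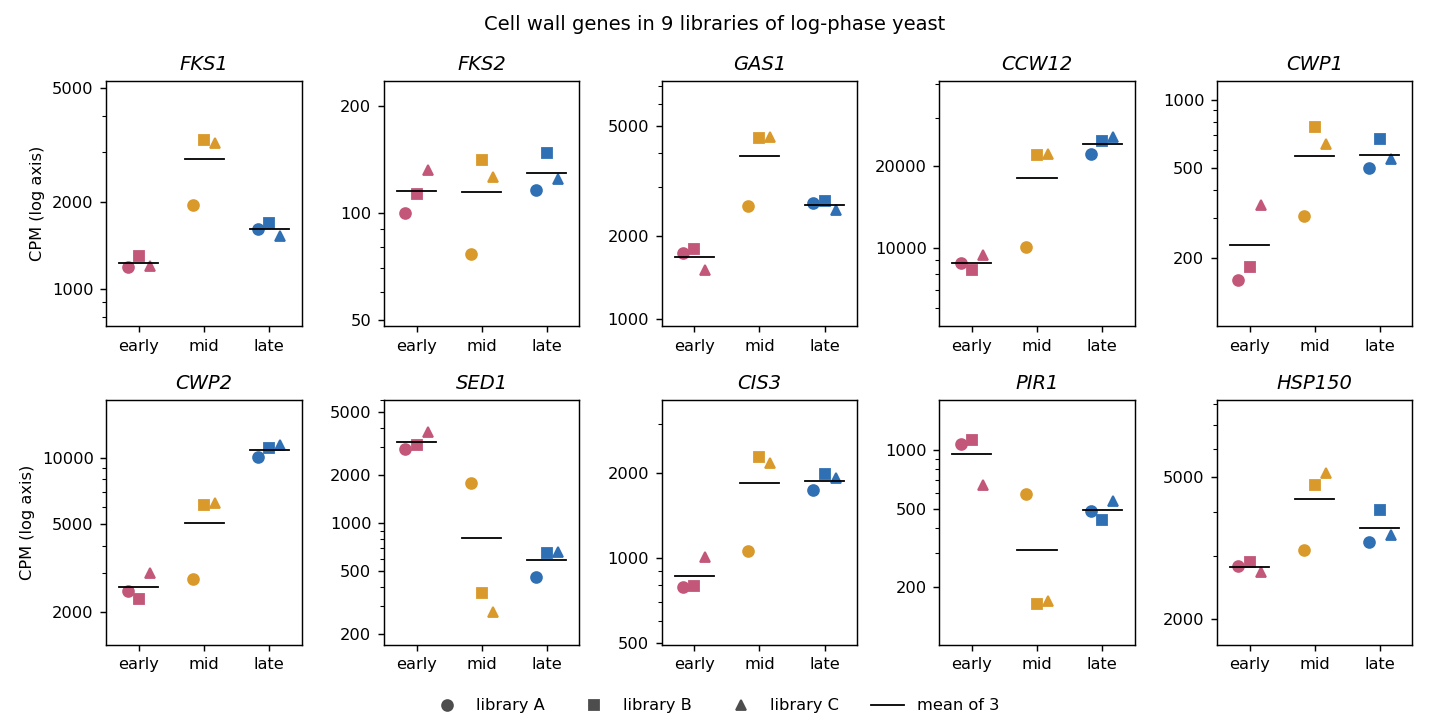
Levels of the 10 genes in each of the 9 libraries, in CPM after TMM scaling on a log axis that differs between panels. Symbols are libraries A, B and C of early, mid and late log, and bars are means of 3. *SED1* lay between 462 and 658 CPM in late log, against 2932 to 3751 CPM in early log, and *CWP2* lay between 10001 and 11424 CPM in late log, against 2286 to 3008 CPM in early log.

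**Figure D2:**
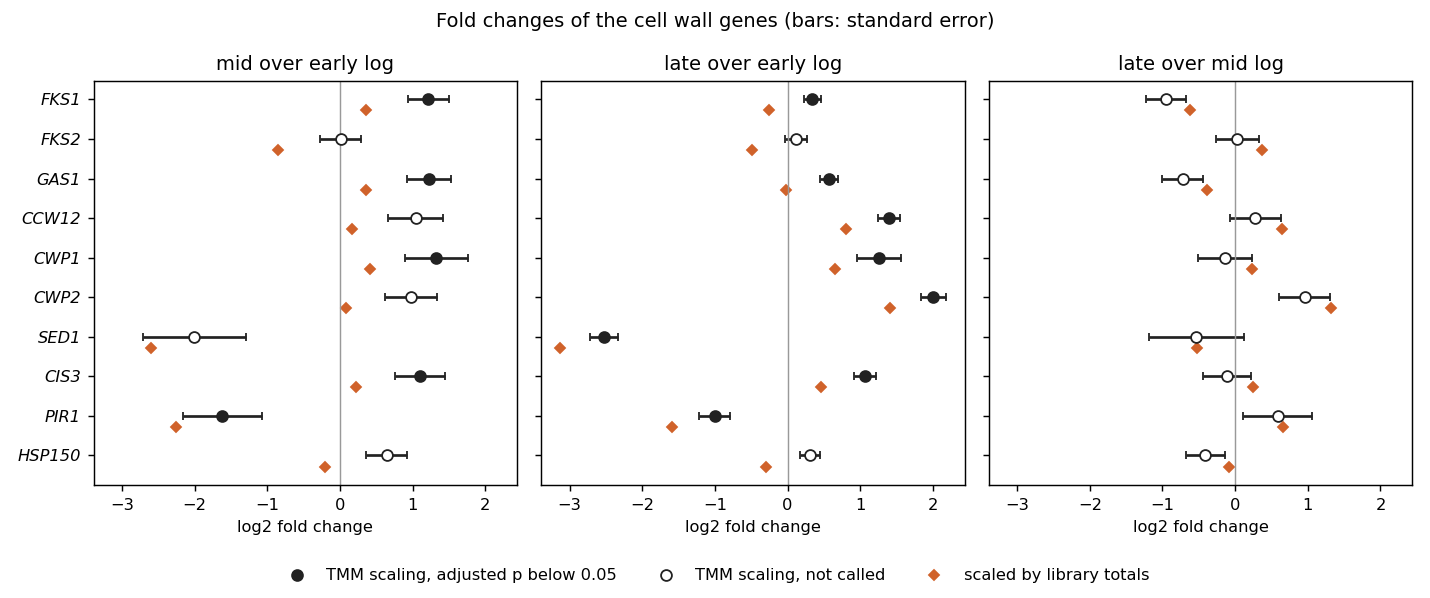
Log2 fold change of each gene in the 3 comparisons, with bars of 1 standard error from edgeR's quasi-likelihood fit. Filled circles passed at an adjusted p below 0.05, and diamonds show the value after scaling by library totals, under which *CWP2* (1.41), *CCW12* (0.80), *SED1* (-3.13) and *PIR1* (-1.59) kept their signs between late and early log and *FKS1* (-0.26) did not.

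*FKS1* and *FKS2* encode alternative catalytic subunits of the glucan synthase that makes the main wall glucan, *FKS1* being the form of vegetative growth on glucose and *FKS2* the form induced by stress and poor carbon sources. *FKS1* lies on the plus strand of chromosome XII from 809997 to 815627 (R64) and *FKS2* on the plus strand of chromosome VII from 548264 to 553951, each as a single coding exon of 5631 and 5688 bases. The longest stretch the 2 coding sequences share is shown because reads inside it cannot be given to either gene. Capitals mark the shared bases, which are at chrXII:812391-812428 in *FKS1*.
*FKS1* and *FKS2*: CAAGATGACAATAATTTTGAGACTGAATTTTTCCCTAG
At 38 bases it is short, and none of the 50-base windows of either gene recurs elsewhere in the genome.

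*FKS1* was at 1187, 1304 and 1198 CPM in early log A, B and C, at 1968, 3315 and 3215 CPM in mid log, and at 1616, 1698 and 1528 CPM in late log. Every mid and late log library lay above every early log library, and every late log library lay below every mid log library. The log2 fold change was 1.22 ± 0.28 (SE) between mid and early log (adjusted p = 0.0164, edgeR's quasi-likelihood test) and 0.34 ± 0.12 between late and early log (adjusted p = 0.0322). The second of these calls was lost when any one of early log A, early log B, late log A, late log B or late log C was left out, with values between 0.29 and 0.39. Its size depended on trends across genes, at 0.92 with the trend of counts with GC content removed and 1.37 with the trend with coding length removed, while the mid over early value was 1.92 and 2.22. Between late and mid log the value was -0.95 ± 0.27 (adjusted p = 0.137), and -1.19 without mid log A.

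*FKS2* was at 100.0, 113 and 132 CPM in early log, at 76.8, 142 and 126 CPM in mid log, and at 116, 147 and 125 CPM in late log. The 3 subphases overlapped. The log2 fold change was 0.12 between late and early log, with a 95% interval from -0.24 to 0.47. It was 0.01 between mid and early log, with an interval from -0.65 to 0.67. Changes of any size within these intervals remained compatible with the counts under TMM scaling. The late over early value was 0.65 with the trend of counts with GC content removed and 1.13 with the trend with coding length removed, and *FKS2* passed the test under both. It was also higher in mid log, at 0.38, without early log C and mid log A together, in a fit that called 89.6% of all genes. With library totals as scaling, *FKS2* was instead called lower. It was then at -0.49 between late and early log (adjusted p = 0.0338, edgeR's quasi-likelihood test) and at -0.85 between mid and early log (adjusted p = 0.0248, same test).

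A ratio of 2 genes within a library needs no scaling. The *FKS2* to *FKS1* ratio of counts was 0.0843, 0.0868 and 0.110 in early log, 0.0390, 0.0427 and 0.0393 in mid log, and 0.0719, 0.0868 and 0.0815 in late log. Mid log A did not stand apart here, and all mid log libraries lay below all early and late log libraries. The log2 ratio differed by -1.21 between mid and early log and by 0.99 between late and mid log, each with p = 0.1 in a two-sided exact permutation test, the smallest p that 3 against 3 allows. Between late and early log it differed by -0.22 (exact p = 0.2), and the libraries overlapped.

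*GAS1* encodes the major glucan transglycosidase of the cell surface, a GPI-anchored enzyme that elongates glucan chains, and lies on the plus strand of chromosome XIII from 887003 to 888682. It was at 1733, 1802 and 1511 CPM in early log, at 2568, 4535 and 4555 CPM in mid log, and at 2637, 2674 and 2485 CPM in late log. Mid and late log libraries all lay above the early log libraries, and mid log A lay among the late log values. The log2 fold change was 1.22 ± 0.30 between mid and early log (adjusted p = 0.0197, edgeR's quasi-likelihood test) and 0.57 ± 0.13 between late and early log (adjusted p = 0.00492). Scaled by library totals, the late over early value was -0.018, and with the trend with coding length removed it was 1.23.

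The 4 genes of GPI wall proteins moved in both directions. *CCW12*, a small mannoprotein that deletion studies show to be important for wall stability, lies on the minus strand of chromosome XII from 369697 to 370098. It was at 8806, 8269 and 9442 CPM in early log, at 10063, 21967 and 22079 CPM in mid log, and at 22092, 24742 and 25666 CPM in late log. No values overlapped between any pair of subphases, but mid log B and C lay just below late log A. Between late and mid log the log2 fold change was 0.27 ± 0.35 (adjusted p = 0.706, edgeR's quasi-likelihood test), and -0.039 without mid log A. *CCW12* had a log2 fold change of 1.40 ± 0.16 between late and early log (adjusted p = 0.000220, edgeR's quasi-likelihood test). Between mid and early log it was 1.04 ± 0.38 (adjusted p = 0.0582), and 1.36 without mid log A (adjusted p = 0.00125). With the trend with GC content removed, *CCW12* was at 0.54 between late and early log (adjusted p = 0.0201) and at 0.066 between mid and early log (adjusted p = 0.895). 

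*CWP2*, a small GPI mannoprotein and one of the most abundant of the wall, lies on the plus strand of chromosome XI from 259253 to 259531. It was at 2492, 2286 and 3008 CPM in early log, at 2826, 6075 and 6249 CPM in mid log, and at 10001, 11093 and 11424 CPM in late log. Late log lay above both other subphases in every library, while mid log A lay inside the early log range. Its log2 fold change was 2.01 ± 0.17 between late and early log (adjusted p = 7.71e-05, edgeR's quasi-likelihood test). In a model of the 9 libraries that holds the sequencing run it was 1.85 (adjusted p = 0.0305), the call of *CWP2* alone being kept there. It was 1.29 with the trend with GC content removed and 1.22 with that of coding length removed. Between late and mid log it was 0.95 ± 0.35 (adjusted p = 0.199).

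*CWP1*, a related mannoprotein that is laid down at birth scars, lies 1600 bases downstream of *CWP2* on the same strand, from 261132 to 261851. It was at 161, 183 and 343 CPM in early log, at 306, 754 and 640.1 CPM in mid log, and at 498, 667 and 545 CPM in late log. Early log C and mid log A crossed over, while late log lay above early log throughout. Its log2 fold change was 1.32 ± 0.43 between mid and early log (adjusted p = 0.0425, edgeR's quasi-likelihood test) and 1.26 ± 0.30 between late and early log (adjusted p = 0.00715). Without early log C the late over early value was 1.68, and against early log C alone, the library of the same run, it was 0.72. The mid over early call was lost with the GC trend removed, at 1.11 (adjusted p = 0.0702), and the late over early call with library totals, at 0.65 (adjusted p = 0.105).

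The *CWP1* to *CWP2* ratio of counts was 0.0646, 0.0801 and 0.114 in early log, 0.108, 0.124 and 0.102 in mid log, and 0.0498, 0.0602 and 0.0477 in late log. All late log ratios lay below all others, so that the 2 neighbouring genes did not rise in proportion. The log2 ratio differed by -0.68 between late and early log and by -1.09 between late and mid log (exact permutation test, two-sided, p = 0.1 each, the smallest possible), and by 0.41 between mid and early log (exact p = 0.3).

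*SED1*, a GPI mannoprotein known as a major surface protein of stationary-phase cells, lies on the plus strand of chromosome IV from 600793 to 601809. It was at 2932, 3099 and 3751 CPM in early log, at 1788, 363 and 276 CPM in mid log, and at 462, 646 and 658 CPM in late log. No mid or late log library reached the early log range, and mid log A stood far above the other 5 of these. *SED1* had a log2 fold change of -2.52 ± 0.20 between late and early log (adjusted p = 6.12e-05, edgeR's quasi-likelihood test). It was the largest change in size among the 10 genes in that comparison. Between mid and early log it was -2.003 ± 0.70 (adjusted p = 0.0522), and -3.31 without mid log A (adjusted p = 0.000177). The late over mid value turned its sign with that library, at -0.54 ± 0.65 with it and 0.71 without it (adjusted p = 0.00448).

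The ratio of *SED1* to *CWP2* counts, chosen after their values were seen and given as a description, was 1.18, 1.36 and 1.25 in early log, 0.633, 0.0597 and 0.0442 in mid log, and 0.0462, 0.0582 and 0.0576 in late log. In early log the libraries held more reads of *SED1* than of *CWP2*, and in all later libraries fewer.

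The Pir proteins are represented by *CIS3* (also *PIR4*), *PIR1* and *HSP150* (also *PIR2*), of which the first rose, the next fell and the last did not pass the test between late and early log. Their coding sequences hold related stretches that limit the counting. The 2 longest stretches shared with another gene are shown, with capitals marking shared bases. The stretch of *HSP150* and *CIS3* is at chrX:121451-121515 in *HSP150*, and that of *PIR1* and *PIR3*, its neighbour and another Pir gene, is at chrXI:142701-142781, on the minus strand.
*HSP150* and *CIS3*: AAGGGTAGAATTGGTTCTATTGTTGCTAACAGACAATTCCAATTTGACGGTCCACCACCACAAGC
*PIR1* and *PIR3*: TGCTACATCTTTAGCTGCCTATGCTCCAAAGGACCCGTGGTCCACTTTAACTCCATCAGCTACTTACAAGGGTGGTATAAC
Of 50-base windows, 6.14% in *PIR1*, 2.52% in *CIS3* and 1.34% in *HSP150* occur elsewhere outside the gene, and 0 in each of the other 7 genes. Reads that match several places were set aside by the counting, so the counts of these 3 genes lack such reads, and how many is not known without the read length.

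*CIS3* lies on the minus strand of chromosome X from 122265 to 122948, and its end is 574 bases from that of *HSP150*, which points towards it. It was at 789, 798 and 1008 CPM in early log, at 1059, 2282 and 2177 CPM in mid log, and at 1742, 1992 and 1918 CPM in late log. Every mid and late log library lay above early log, with mid log A nearest to it. The log2 fold change was 1.10 ± 0.34 between mid and early log (adjusted p = 0.0355, edgeR's quasi-likelihood test) and 1.07 ± 0.15 between late and early log (adjusted p = 0.000581). With the GC trend removed these were 0.77 (adjusted p = 0.124) and 0.70 (adjusted p = 0.00151), and with library totals 0.22 (adjusted p = 0.464) and 0.47 (adjusted p = 0.0326).

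*PIR1*, a Pir protein that is needed for tolerance of heat shock, lies on the minus strand of chromosome XI from 141794 to 142819. It was at 1075, 1125 and 658 CPM in early log, at 593, 164 and 169.8 CPM in mid log, and at 490.0, 441 and 549.9 CPM in late log. All later libraries lay below early log, but early log C and mid log A were close to each other. Its log2 fold change was -1.62 ± 0.55 between mid and early log (adjusted p = 0.0472, edgeR's quasi-likelihood test) and -1.0025 ± 0.21 between late and early log (adjusted p = 0.00435). Against early log C alone, the late over early value was -0.42, with no test, and the late over early call was lost when all libraries were fitted together, at -0.95 (adjusted p = 0.109). Between late and mid log it was 0.58 ± 0.48, and 1.39 without mid log A (adjusted p = 4.15e-06).

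*HSP150*, a secreted, O-mannosylated Pir protein induced by heat shock, lies on the plus strand of chromosome X from 120449 to 121690. It was at 2813, 2889.5 and 2719 CPM in early log, at 3113, 4759 and 5141 CPM in mid log, and at 3291, 4039.6 and 3446 CPM in late log. The later libraries lay above early log in every case, but the log2 fold changes of 0.64 ± 0.28 between mid and early log (adjusted p = 0.0944, edgeR's quasi-likelihood test) and 0.30 ± 0.14 between late and early log (adjusted p = 0.0825) did not pass. The second had a 95% interval from -0.021 to 0.63, and it was -0.27 with the trend of counts with GC content removed and 0.73 with that of coding length removed. DESeq2 called *HSP150* higher in late log at 0.36 (adjusted p = 0.0199).

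The 2 Pir genes *PIR1* and *HSP150* can also be compared without scaling, as a description chosen after their values were seen. The ratio of *PIR1* to *HSP150* counts was 0.382, 0.389 and 0.242 in early log, 0.190, 0.0344 and 0.0330 in mid log, and 0.149, 0.109 and 0.160 in late log. Early log libraries held the highest ratios, and mid log B and C the lowest.

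**Figure D3:**
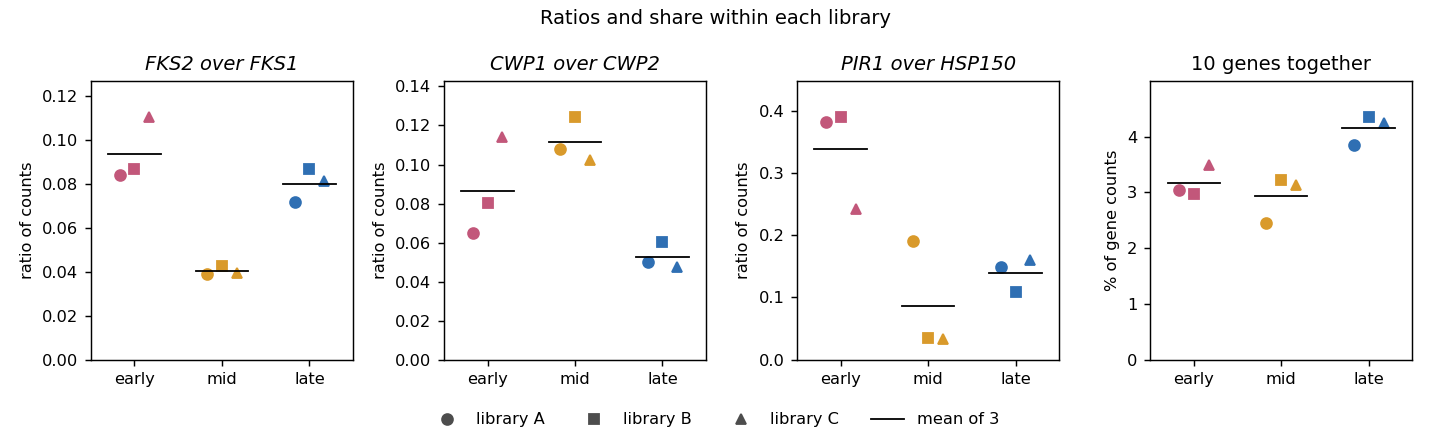
Ratios of counts within each library for 3 pairs of genes, and the share of gene counts taken by the 10 genes, by subphase. Symbols are libraries A, B and C, bars are means of 3, and each axis starts at 0. The *FKS2* to *FKS1* ratio was at 0.0390 to 0.0427 in mid log, below all other libraries, and the *CWP1* to *CWP2* ratio was at 0.0477 to 0.0602 in late log.

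Together the 10 genes took 3.03%, 2.97% and 3.49% of gene counts in early log, 2.46%, 3.22% and 3.12% in mid log, and 3.86%, 4.34% and 4.25% in late log. Late log lay above both other subphases without overlap, by 0.98 percentage points over early log and 1.22 over mid log (exact permutation test, two-sided, p = 0.1 each, the smallest possible). *CCW12*, at 1.01% to 2.25%, weighs most in this sum, so the share says little of the genes with few counts. Counting groups that do not overlap, 9 of 10 genes were separate between late and early log, where 77.1% of all genes were, 7 of 10 between mid and early log, where 61.5% were, and 3 of 10 between late and mid log, where 28.3% were.

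Levels of different genes were compared per kilobase of coding sequence. *CCW12* was highest in every subphase, at 21987 ± 1461 CPM per kb in early log, 44867 ± 17178 in mid log and 60116 ± 4616 in late log (SD, n = 3). *CWP2* came next in each, and *FKS2* was lowest, at 20.2, 20.2 and 22.7 CPM per kb, more than 10 times below *FKS1*. *SED1* was in place 3 in early log, at 3206 ± 426 CPM per kb, in place 6 in mid log and in place 7 in late log, at 579 ± 108 CPM per kb. In mid log the neighbours *SED1* and *CWP1*, at 796 ± 835 and 787 ± 324 CPM per kb, did not differ beyond their spread, nor in late log did *HSP150* and *CIS3*, at 2892 ± 318 and 2754 ± 188.

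**Figure D4:**
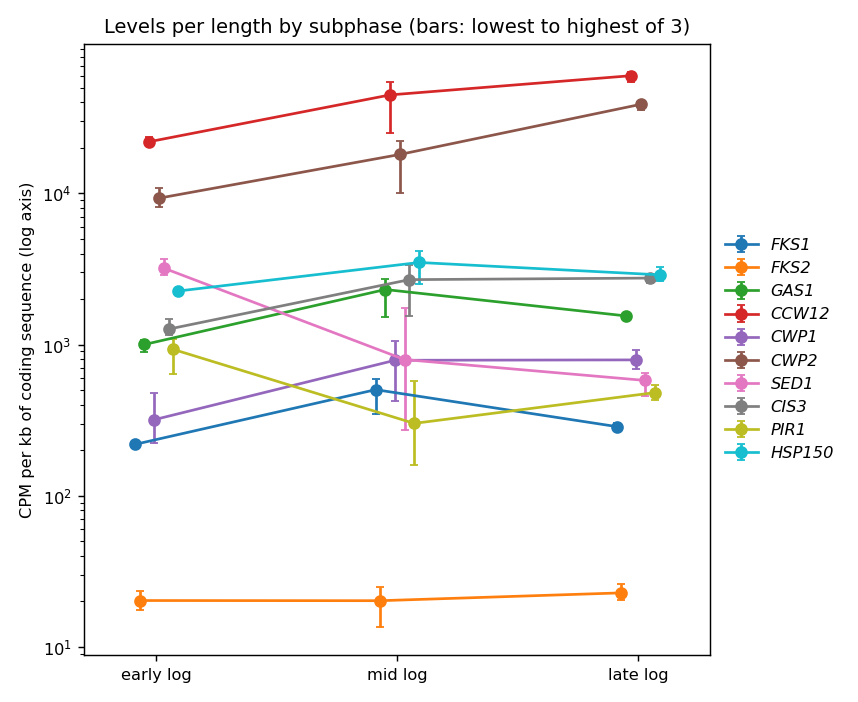
Mean level of each gene in CPM per kb of coding sequence on a log axis, in early, mid and late log, with bars from the lowest to the highest of 3 libraries. *CCW12* and *CWP2* stayed on top and *FKS2* at the bottom, while the line of *SED1* crossed those of *HSP150*, *CIS3* and *GAS1* between early and mid log.

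Across the 9 libraries, which share runs and the scaling, log2 levels of the genes were correlated, given here as a description. *FKS1* and *GAS1* were at Pearson's r = 0.971, *CCW12* and *CIS3* at 0.966, and *CCW12* and *CWP2* at 0.964. *SED1* and *PIR1*, the genes that fell, were at 0.857 with each other, and *SED1* was at -0.952 with *CIS3*. *FKS1* and *FKS2* were at 0.207. Among 2164 other named genes, the one most alike by Pearson's r was *TNA1* for *FKS1* (0.998), *GCN4* for *FKS2* (0.854), *ZRT1* for *GAS1* (0.998), *FPR1* for *CCW12* (0.992), *APD1* for *CWP1* (0.986), *RDL1* for *CWP2* (0.997), *GDS1* for *SED1* (0.994), *MCH4* for *CIS3* (0.993), *RPS20* for *PIR1* (0.992) and *HST2* for *HSP150* (0.987).

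Upstream sequences were scanned for letters known to be bound by wall and cell cycle factors, in the 500 bases before each start codon and on both strands. The Swi4 motif CGCGAAA, of a factor that turns on wall genes in late G1, was found before 4 of the 10 genes and in 5.81% of 6006 upstream regions. These 4, *GAS1*, *CCW12*, *CWP1* and *CWP2*, are genes that were higher in late log than in early log. Their matches are shown with 18 bases on each side, as read on the gene's strand, with the motif or its reverse complement in capitals. They are at chrXIII:886628-886670 (*GAS1*), chrXII:370367-370409 on the minus strand (*CCW12*), chrXI:260655-260697 (*CWP1*) and chrXI:258921-258963 (*CWP2*), and lie 350, 286, 452 and 307 bases before the start codon.
*GAS1*: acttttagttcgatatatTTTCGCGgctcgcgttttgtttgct
*CCW12*: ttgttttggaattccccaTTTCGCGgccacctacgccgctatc
*CWP1*: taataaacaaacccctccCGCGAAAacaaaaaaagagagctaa
*CWP2*: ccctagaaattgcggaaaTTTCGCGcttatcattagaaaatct
The letters alone do not show binding, and *CIS3* and *FKS1*, also higher, had no match to CGCGAAA in this window. Other forms of the motif were not scanned. *SWI4* itself was lower in late log, at -1.92 (adjusted p = 0.00577, edgeR's quasi-likelihood test). Its levels were low, at 7.9, 7.5 and 2.5 CPM in early log and 1.8, 1.6 and 1.5 CPM in late log. The motifs were chosen with earlier results known, and a role of Swi4 was not tested.

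The Rlm1 motif CTANNNNTAG, of the factor at the end of the cell wall integrity pathway, was found before 4 of the 10 genes and in 9.29% of all regions. These 4 did not share a direction, with *SED1* lower and *CWP1* higher in late log and *FKS2* and *HSP150* not called. Their windows, at chrIV:600295-600340 (*SED1*), chrXI:260728-260773 (*CWP1*), chrVII:547910-547955 (*FKS2*) and chrX:120208-120253 (*HSP150*), show the match in capitals, and *HSP150* had another one nearer to its start codon.
*SED1*: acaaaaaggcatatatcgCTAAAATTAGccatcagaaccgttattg
*CWP1*: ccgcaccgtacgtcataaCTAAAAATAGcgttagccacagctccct
*FKS2*: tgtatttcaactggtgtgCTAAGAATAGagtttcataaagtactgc
*HSP150*: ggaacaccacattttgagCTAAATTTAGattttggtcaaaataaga
The stress response element AGGGG was found before 6 genes (34.1% of regions) and the heat shock core TTCNNGAA before 3 (21.2%), shares in which short motifs are common.

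The other cell wall genes were described with 6 lists of 116 genes. Between late and early log 44 of 114 tested were higher and 33 lower, beside 33.0% and 39.2% of all genes. Between mid and early log 33 of 115 were higher and 13 lower, beside 20.7% and 24.2% of all genes. None of 115 passed between late and mid log with edgeR, where 15 had an unadjusted p below 0.05. With libraries scaled as in DESeq2, edgeR gave an unadjusted p below 0.05 for 1163 of all 5865 genes. DESeq2 called 4 of the wall genes, beside 6.03% of all genes. Low p-values were thus no more common among these wall genes than over all genes. Without mid log A the mid over early count was 92 (56 higher and 36 lower), where 76.4% of all genes passed. The late over mid count was then 75, where 56.1% of all genes passed. With library totals as scaling, the late over early calls were 13 higher and 57 lower, and the mid over early calls 5 higher and 32 lower. Of all genes, 839 of 5954 were then higher and 3291 lower in late log, and 216 of 5951 higher and 2127 lower in mid log.

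Under TMM, genes of mannosylation were called higher in late log more often than lower. This balance turned with library totals, a scaling under which lower calls prevailed over all genes too. Genes of the integrity pathway were called lower more often than higher under both scalings. Over all genes, TMM gave 33.0% higher and 39.2% lower in late log. Of 22 mannosylation genes, 14 were higher and 4 lower in late log than in early log, with a median log2 fold change of 0.57. In mid log 14 were higher and 0 lower than in early log, beside 20.7% and 24.2% of all genes. *PSA1*, which makes the GDP-mannose used for all mannosylation, was at 1339 to 1947 CPM in early log, 3235 to 5063 CPM in mid log and 3994 to 4207 CPM in late log, with a late over early log2 fold change of 1.31 ± 0.17 (adjusted p = 0.000458, edgeR's quasi-likelihood test). *PMT4*, a protein O-mannosyltransferase, stood 1.75 ± 0.31 higher in mid log relative to early log (adjusted p = 0.0135, same test). *MNN9*, a subunit of Golgi mannan polymerase, was at -1.87 ± 0.28 between late and early log (adjusted p = 0.000814). With library totals as scaling, 2 of the 22 mannosylation genes were higher and 8 lower in late log. Of all 5954 genes, that scaling called 839 higher and 3291 lower. Lower calls were thus no more common in this list than over all genes.

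Of 20 integrity pathway genes, 1 was higher and 14 were lower in late log than in early log, with a median of -0.99. In mid log 1 was higher and 9 lower than in early log, beside 20.7% and 24.2% of all genes. *SLT2*, the MAP kinase of the pathway, was at 251 to 291 CPM in early log, 37.3 to 186 CPM in mid log and 58.9 to 89.7 CPM in late log, with a late over early value of -1.98 ± 0.19 (adjusted p = 0.000115, edgeR's quasi-likelihood test). *BEM2*, a GTPase-activating protein for Rho1, was lower in mid log at -1.41 ± 0.29 (adjusted p = 0.0145). With library totals as scaling, 18 of these genes were lower and 0 higher in late log, beside 3291 lower and 839 higher of all 5954 genes. With the trend with GC content removed 9 were lower and 0 higher, beside 1770 and 2611 of 5954. With that of coding length removed 6 were lower and 3 higher, beside 1727 and 2604 of 5954, so that the lower count was close to that of all genes. With the sequencing run in the model 5 were lower and 0 higher, beside 728 and 724 of 6014.

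Of 26 other GPI and Pir genes tested, 10 were higher and 5 lower in late log, beside 33.0% and 39.2% of all genes, and of 18 glucan remodelling genes 9 were higher and 2 lower. *TIP1*, a mannoprotein of the cold shock family, was at 172 to 175 CPM in early log, 608 to 1352 CPM in mid log and 791 to 1063 CPM in late log. Its log2 fold change was 2.67 ± 0.35 between mid and early log (adjusted p = 0.0135, edgeR's quasi-likelihood test) and 2.36 ± 0.15 between late and early log (adjusted p = 3.98e-05). *TOS6*, a gene of a GPI protein, rose by 1.44 ± 0.18 in late log (adjusted p = 0.000394). The glucan synthesis list had 5 higher and 3 lower of 12, and the chitin list 5 higher and 5 lower of 16, among them *CHS1*, the chitin synthase of repair at cell separation, at -1.69 ± 0.22 (adjusted p = 0.000409). *PCM1*, which makes a precursor of the sugar donor of chitin, was higher in mid log at 1.73 ± 0.31 (adjusted p = 0.0135).

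**Figure D5:**
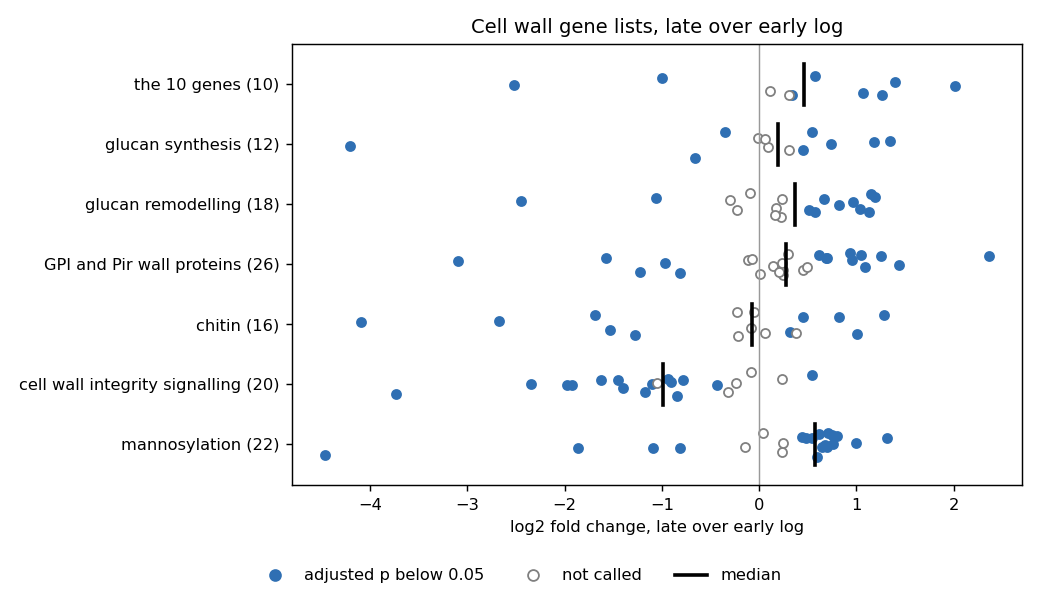
Log2 fold change between late and early log for the 10 genes and for each of 6 lists of other cell wall genes, with the number tested in brackets. Filled points passed at an adjusted p below 0.05, black bars are medians, and the height of a point within its row has no meaning. The median was -0.99 for integrity signalling and 0.57 for mannosylation.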

How the data were processed

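Poly(A)-selected RNA of 9 yeast cultures was sequenced from single ends with a directional kit. Per the labels and the methods, the authors aligned reads to R64 with STAR and deposited raw HTSeq counts per gene. The HTSeq version differs between the submitters' notes (0.12.3) and the methods, and strand setting, annotation release and read length are not given in the sources used here. The 5 summary lines were left out of totals. Of counts on genes and these lines together, 6.65% to 10.7% had no feature, 0.281% to 0.511% were ambiguous and 7.46% to 11.2% were not unique. Because strand setting is not given, reads from overlapping antisense transcription cannot be told apart. None of the 10 genes overlaps another RefSeq gene, while overlap with listed genes outside RefSeq was not checked.

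For each 2 subphases the model used their 6 libraries alone, in R 4.3.3 with edgeR 4.0.16 (filterByExpr, TMM, glmQLFit and glmQLFTest, adjusted p threshold 0.05 over all genes tested). Standard errors were derived from the F statistic. CPM used TMM over 9 libraries. P-values of the fits set the difference between subphases against the spread between the 3 cultures of each, moderated across genes. Ratios and shares used exact permutation tests. Sequences and coordinates came from the RefSeq R64 genome, and 6047 of the listed genes have a RefSeq locus tag. DESeq2 1.42.0 was used for alternatives, and limma 3.58.1 was loaded with edgeR. The steps were tested on simulated data.

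The text names all 10 genes, the largest rises and falls (up to 3 each way per comparison) of the listed other genes that were called and averaged at least 5 in log2 CPM, and for each of the 10 the gene of highest Pearson's r. *SWI4* is named besides, as the gene of a motif's factor. One of the motifs scanned is not reported here. Members, lists and motifs were chosen with earlier results of these data known. The alternatives were other scalings, filters and tools, a replicate block, a single model of all libraries, the trends with GC content or coding length taken out, the sequencing run, and each library left out. The pair of early log C and mid log A left out together was added after seeing the data.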

Additional observations from a re-analysis of the deposited data

How the results depend on the processing

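The comparisons rest on 3 libraries per subphase, sequenced in runs that follow the subphases in part. With run as a term, only early log C ties early to late log, and the late over early count was 1 of the 10 genes and 10 of the other cell wall genes, beside 24.1% of all genes.

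Of the 10 genes, the mid over early count was 8 with DESeq2's size factors (47.0% of all genes), 2 (0 higher, 2 lower) with library totals (39.4%), 9 with DESeq2's test (48.3%), 9 with 1 fit of all libraries (57.6%), 10 without early log C and mid log A together, and 0 to 9 with single libraries left out. The count of other cell wall genes was 103 without those 2 libraries and 0 to 92 with single libraries left out, the lowest when early log A, B of either subphase, or mid log C was left out. Over all genes these fits called 89.6% and 0 to 76.4%. Between late and mid log, the count of the 10 was 2 with library totals, 1 with DESeq2's test and 0 to 8 with single libraries left out. That of other genes was 3 with library totals, 4 with DESeq2's test, 1 with 1 fit of all libraries and 0 to 75 with single libraries left out, the highest without mid log A. Over all genes these fits called 7.72%, 6.03%, 3.71% and 0 to 56.1%. Between late and early log these counts ranged from 7 to 9 and from 68 to 86 with single libraries left out, beside 63.7% to 80.8% of all genes. They were 6 and 70 with library totals (69.4% of all genes), 6 and 66 with 1 fit of all libraries (58.6%), and 10 and 91 with the length trend removed (72.7%). The replicate numbers did not pair the libraries, with same-number correlations between -0.36 and 0.38, and with a replicate block the counts of the 10 were 5 between mid and early log, 7 between late and early log and 0 between late and mid log.

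With library totals, signs turned between mid and early log for *FKS2* (-0.85) and *HSP150* (-0.21), between late and early log for *FKS1* (-0.26), *FKS2* (-0.49), *GAS1* (-0.018) and *HSP150* (-0.29), and between late and mid log for *CWP1* (0.23) and *CIS3* (0.25). With 1 fit of all libraries they turned for *FKS2* between mid and early log (-0.00387) and for *CWP1* (0.0084) and *CIS3* (0.035) between late and mid log. *FKS2* between mid and early log was also at -0.046 without a filter, -0.070 with at least 10 counts, -0.029 with a replicate block and -0.17 to 0.26 with single libraries left out. *FKS2* between late and early log was at -0.031 with the run term and -0.038 against early log C alone. With the GC trend removed *HSP150* was at -0.27 between late and early log and *FKS2* at -0.015 between late and mid log, and with the length trend removed *CCW12* was at -0.095. With single libraries left out, late over mid values ranged from -0.22 to 0.22 for *FKS2*, -0.039 to 0.46 for *CCW12*, -0.93 to 0.71 for *SED1*, -0.46 to 0.13 for *CWP1* and -0.41 to 0.081 for *CIS3*. The cause was not tested.

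The share of counts taken by the 10 genes differed between mid and early log by -0.38 to 0.0043 percentage points with single libraries left out. As a share of protein-coding counts outside 138 ribosomal protein genes, the differences were -0.84 between mid and early log, 1.30 between late and early log and 2.14 between late and mid log.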
